A study of Mus musculus with 18 samples.

Results

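The comparison described here set KPCA.B cells with the hairpin shNdufa5_1 against KPCA.B cells with the control hairpin, both grown in medium conditioned by senescent cells (SCM). It rested on 6 of the 18 RNA libraries of the series, 3 labelled shNdufa5_1_SCM and 3 labelled shControl_SCM, which were chosen by their labels alone. Genes entered when their mean over all 18 libraries was at least 1 FPKM, which left 11084 genes of the 54532 in the table. FPKM are fragments scaled to gene length in kilobases and to a denominator for library size.

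KPCA.B cells model high-grade serous ovarian carcinoma in the mouse, and no source used here gives the alleles engineered into them. The hairpin shNdufa5_1 targets Ndufa5, which encodes an accessory part of respiratory complex I, and shControl is the control hairpin. SCM came from cells made senescent with cisplatin, and the other medium of the series (PCM) from proliferating cells given only the vehicle DMF. All groups received conditioned medium 1:1 with fresh DMEM with high glucose, 4% serum, EGF at 2 ng/mL and ITS-G at 1X. The groups set beside the comparison were shNdufa5_1 and shControl cells in PCM and cells with another Ndufa5 hairpin, shNdufa5_2, in SCM, with 3 libraries each. The hairpin sequences, the duration of culture and whether the lines were clones or pools are not stated. Since no label ties the 3 libraries of each group to independent cultures, p-values reflect the spread among these libraries alone, and that spread may be technical.

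Complex I takes electrons from NADH to ubiquinone and pumps protons across the inner mitochondrial membrane. It has a peripheral arm in the matrix, with the N module that binds NADH and the Q module that passes electrons to ubiquinone, and a membrane arm that holds the proton channels. The Ndufa5 protein sits in the Q module. Senescent cells secrete cytokines, chemokines, growth factors and proteases, and neighbouring cells in such a medium can switch on inflammatory, interferon and stress genes.

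The steps of the low values gave depths of 17.0, 20.8 and 17.1 M fragments with shNdufa5_1, against 15.2, 38.9 and 15.4 M with shControl. The denominators of the FPKM values, from the same steps, were 17.0, 20.9 and 17.1 M with shNdufa5_1, against 13.4, 33.7 and 13.6 M with shControl. They were close to the depths with shNdufa5_1 and below them with shControl. Replicates correlated across genes at r of 0.988 to 0.990 with shNdufa5_1 and of 0.985 to 0.988 with shControl. Gm23935, a feature annotated at 57 bp, took 0.169 to 0.341% of fragments with shNdufa5_1 and 0.358 to 0.521% with shControl, so libraries with shControl held more of it. Across 11074 genes with a known sequence the difference followed GC content (Spearman rho -0.36) and exon length (rho 0.304), and genes are not independent replicates. Values from fits with these trends removed are given where they change a result by over 1.5 times. Bulk RNA cannot tell fewer cells of a kind from less RNA per cell.

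The target gene was low in every library with shNdufa5_1. Ndufa5 (ENSMUSG00000023089, GRCm38 chromosome 6, 24518666 to 24528013, minus strand, 1032 bp of exons) had 6.46, 6.78 and 6.23 FPKM with shNdufa5_1, against 22.3, 26.2 and 20.9 FPKM with shControl. The groups did not overlap, and the mean with shNdufa5_1 was 28% of that with shControl (6.49 ± 0.275 against 23.1 ± 2.77 FPKM, SD, n = 3 each). Its difference was -1.68 on the log2(FPKM + 1) scale used throughout (SE 0.12, 95% interval -1.94 to -1.43, limma adjusted p = 9.8e-09). With 3 libraries a group, an exact two-sided permutation test cannot go below p = 0.1, and that was its value for Ndufa5.

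Beyond the target, the differences were broad and mostly small. Of 11084 genes, 6631 (59.8%) passed limma's test at an adjusted p under 0.05 (Benjamini-Hochberg), 3181 higher (28.7%) and 3450 lower (31.1%) with shNdufa5_1. Only 304 of them (2.74%) differed by at least 1 on the log2(FPKM + 1) scale, 79 higher (0.713%) and 225 lower (2.03%). That scale understates the fold of low genes, so these are not counts of genes past a fold in FPKM. The 3 libraries of one group lay wholly apart from the other 3 in 65.1% of genes, above them in 31.4% and below them in 33.7%. On the deposited scale the median difference over all genes was -0.0043. Scaled by library totals instead, that median was 0.15 and the calls split into 4841 higher and 2219 lower, so every direction below is relative to the median gene on the deposited scale.

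The largest rises were in Ly6g, Nptx1, Plau and Il33. Ly6g, which encodes an anchored surface protein known from granulocytes, had 8.39, 7.37 and 8.13 FPKM with shNdufa5_1, against 0.711, 0.818 and 1.48 with shControl (2.18 ± 0.15, SE, adjusted p = 4.18e-09). Nptx1, for the secreted neuronal pentraxin 1, had 5.24, 5.44 and 5.12 FPKM, against 0.613, 0.904 and 0.395 (1.95 ± 0.13). Both genes were low in the control libraries, so their differences on this scale understate the ratio of the means, which was 7.93 for Ly6g and 8.27 for Nptx1. Plau, the gene of urokinase-type plasminogen activator, a protease that starts the breakdown of matrix by plasmin, had 12.9, 13.9 and 12.4 FPKM with shNdufa5_1, against 3.27, 2.73 and 3.70 with shControl (1.74 ± 0.10). Il33, for a nuclear cytokine of the interleukin-1 family, had 38.8, 35.7 and 38.6 FPKM, against 10.3, 12.6 and 12.3 (1.61 ± 0.10).

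In each of these 4 genes every library with shNdufa5_1 was above every control library. Further rises were in Ackr3 (1.51), a receptor that takes up the chemokine CXCL12, Prss22 (1.48), a trypsin-like protease, and Trpa1 (1.46), a cation channel opened by irritants. Prl2c2, a prolactin-related hormone gene with near-identical copies, differed by 1.47 and is uncertain for that reason. The kinetochore gene Spc25 (1.36), the tubulin-binding Tppp3 (1.35), the matrix protein gene Npnt (1.35), the RNA helicase gene Dhx9 (1.34), the paraspeckle gene Pspc1 (1.33), the cilium transport gene Ift74 (1.32) and Morc4 (1.37) completed the 15 largest rises among called genes with a higher group mean of at least 5 FPKM and no overlap between groups.

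The largest falls were in Hspa1b, Ccl5, Gadd45b and Car6. Hspa1b, a stress-inducible Hsp70 chaperone, had 1.54, 1.74 and 1.11 FPKM with shNdufa5_1, against 21.3, 19.4 and 18.7 with shControl (-3.08 ± 0.16, adjusted p = 3.3e-10), 7.39% of the control mean. Its near-identical copy Hspa1a was under the filter, and fragments of the pair cannot be told apart with certainty. Ccl5, a chemokine for T cells and monocytes, had 1.84, 1.40 and 1.28 FPKM, against 13.5, 14.8 and 14.3 (-2.60 ± 0.17). Gadd45b, a stress-induced gene that NF-kB can switch on, had 10.6, 8.86 and 9.49 FPKM, against 54.6, 55.8 and 51.2 (-2.37 ± 0.06). Lcn2, whose product binds bacterial siderophores, had 10.5, 10.2 and 9.09 FPKM, against 42.9, 40.1 and 41.6 (-1.96 ± 0.08).

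Genes entered the ranking only without overlap between groups, so in these genes the control libraries were all above the shNdufa5_1 libraries. The control means were higher by 13.5-fold in Hspa1b, 9.41-fold in Ccl5, 5.58-fold in Gadd45b and 4.19-fold in Lcn2. The secreted carbonic anhydrase gene Car6 (-2.12), the mitochondrial intermembrane gene Chchd10 (-1.89), the snoRNA host transcript Snhg12 (-1.73) and Prr13 (-1.65) also fell. H2-K2 fell by 1.84, but class I histocompatibility genes share sequence and its value is uncertain. Irf7, Ifi27, Sdf2l1 and Manf, also among the largest falls beside Ndufa5, are described with their groups below.

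**Figure D1:**
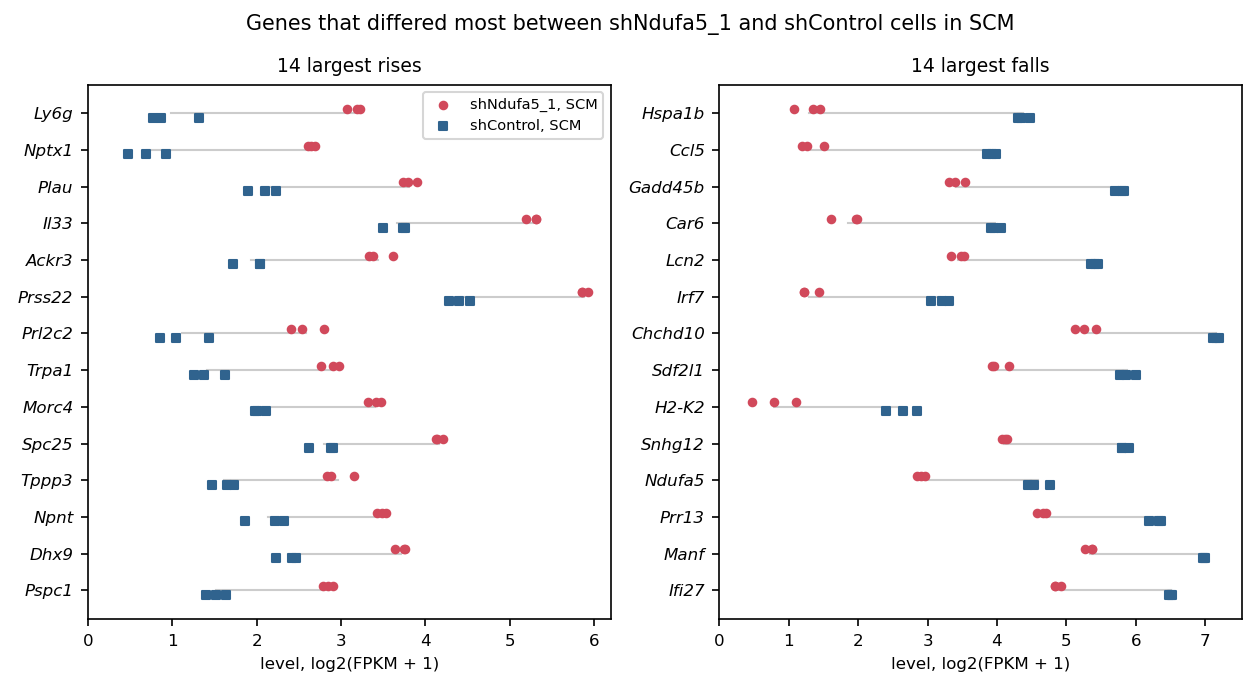
Level of the 14 genes with the largest rise (left) and the 14 with the largest fall (right) on the log2(FPKM + 1) axis, 1 symbol per library and a grey line between group means. Red circles are shNdufa5_1 and blue squares shControl libraries in SCM. The choice of genes required that the 2 groups do not overlap. Rows run from Ly6g (2.18) to Pspc1 (1.33) and from Hspa1b (-3.08) to Ifi27 (-1.64).

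Gene lists gave a block that was mostly lower and a block of mixed lists nearer the median gene. Members of cholesterol synthesis and of G2 and mitosis were mostly higher. The lower block held cytosolic ribosomal proteins, complex I and the other respiratory complexes, class I antigen presentation, endoplasmic reticulum (ER) chaperones, interferon effectors, lysosome and mitochondrial ribosomal proteins, with medians of -0.82 to -0.38. Cholesterol synthesis (0.38) and G2 and mitosis (0.24) had the highest medians. Counts of members called in a list stand beside 28.7% higher and 31.1% lower over all genes tested. A mixed count near these shares is no trait of its list. For 13 of the 33 pathway lists the median changed sign when values were scaled by library totals. These 13 lay between -0.15 and -0.02, so no direction is given for them as a whole.

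**Figure D2:**
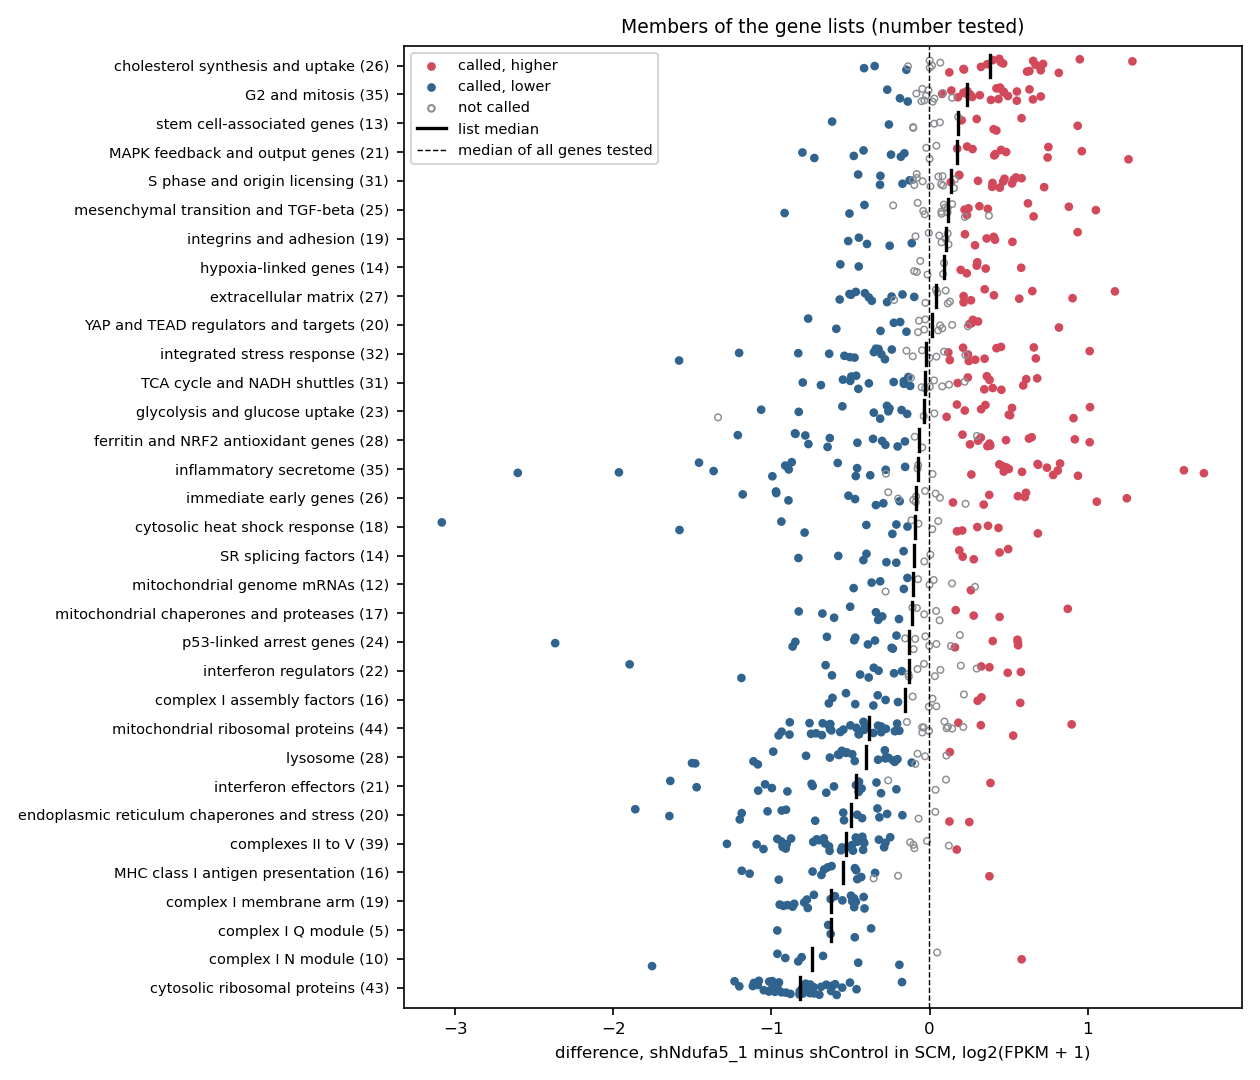
Difference of each tested list member, shNdufa5_1 minus shControl in SCM, on the log2(FPKM + 1) scale, with the number tested beside the list's name. Filled symbols passed limma at an adjusted p under 0.05 (red higher, blue lower), open ones did not, black bars are list medians and the dashed line is the median of all genes tested (-0.0043). The list medians run from 0.38 for cholesterol synthesis down to -0.82 for cytosolic ribosomal proteins.

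Subunits of complex I other than Ndufa5 were lower with shNdufa5_1 in nearly all cases. Of the 34 nuclear-encoded subunits tested, 32 fell, 1 rose and 1 did not pass, with a median of -0.63 against -0.0043 for all genes tested. In the N module 8 of 10 fell (median -0.74), in the Q module all 5 (-0.63) and in the membrane arm all 19 (-0.63). Ndufb1 was not analysed here and Ndufb2 was under the filter. With GC and length trends removed the medians were -0.45 for the N module and -0.36 for the Q module, and under quantile normalization -0.44 and -0.38.

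Ndufv1, which holds the NADH site of the N module, had 79.9, 80.9 and 79.4 FPKM with shNdufa5_1, against 145, 149 and 135 with shControl (-0.83 ± 0.04, adjusted p = 2.74e-10). Ndufs8, an iron-sulfur subunit of the Q module, had 93.0, 101 and 94.1 FPKM, against 193, 184 and 188 (-0.96 ± 0.05). Ndufb9, of the membrane arm, had 31.9, 34.2 and 33.7 FPKM, against 60.4, 70.9 and 64.2 (-0.95 ± 0.07). Each stood at 51.0 to 55.9% of the control mean, with no overlap between the groups. Falls of like size were in Ndufa7 (-0.96), Ndufv3 (-0.91), Ndufb4 (-0.92), Ndufa11 (-0.90) and Ndufs5 (-0.87), and smaller ones in Ndufs7 (-0.64), Ndufs3 (-0.63) and Ndufa9 (-0.47).

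Ndufa12 was called lower (-1.75, adjusted p = 0.0184), but its groups overlapped, with 10.1, 10.3 and 19.3 FPKM for shNdufa5_1 and 69.3, 76.8 and 17.0 FPKM for shControl. Its adjusted p was 0.0756 without shControl replicate 1, 0.0849 without shControl replicate 2, 0.0577 without shNdufa5_1 replicate 1, 0.0568 without shNdufa5_1 replicate 2 and 0.056 with no filter on low values. Ndufs1, the large iron-sulfur subunit of the N module, was the exception that rose, with 10.8, 10.1 and 11.0 FPKM, against 6.38, 7.01 and 6.93 (0.58 ± 0.06, adjusted p = 2.85e-07).

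Assembly factors of complex I went both ways, with 8 of 16 lower and 3 higher. Foxred1 (-0.64), Ecsit (-0.61) and Ndufaf6 (-0.53) fell and Tmem70 rose (0.57). Of 12 messenger RNAs of the mitochondrial genome, 5 fell and 1 rose. Mt-Co2 fell by 0.48 and mt-Co1 had 4619.9, 4640.4 and 4812 FPKM with shNdufa5_1, against 6172, 5872 and 6098 with shControl (-0.37 ± 0.04). These directions depended on scaling, since under quantile normalization mt-Co1 (0.16) and mt-Nd2 (0.33, against -0.31 in the deposited scaling) were higher, and the call of mt-Co2 ended (-0.20, adjusted p = 0.259), as it did with scaling by totals (-0.29, adjusted p = 0.0779). Mt-Nd1 rose (0.26).

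Subunits of the other respiratory complexes were also mostly lower. Of 39 subunits of complexes II to V, 33 fell and 1, Atp5f1 (0.17), rose, with a median of -0.53 (-0.30 under quantile normalization, -0.34 by library totals). Uqcrq, a small subunit of complex III, had 57.5, 53.8 and 56.5 FPKM with shNdufa5_1, against 132, 144 and 136 with shControl (-1.28 ± 0.04, adjusted p = 1.79e-12). Cyc1, the cytochrome c1 gene of complex III, had 99.0, 95.6 and 85.0 FPKM, against 193, 208 and 198 (-1.09 ± 0.05). Cytochrome oxidase genes Cox6a1 (-1.05) and Cox8a (-0.96) fell by similar amounts.

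Most genes for proteins of the mitochondrial ribosome were lower. Of 44 mitochondrial ribosomal protein genes, 30 fell and 4 rose, with a median of -0.38 (-0.20 by library totals). Mrps24 (-0.95), Mrpl28 (-0.94) and Mrps12 (-0.89) fell most, and Mrps2 rose, with 21.8, 21.4 and 21.1 FPKM against 11.0, 10.3 and 11.9 (0.90 ± 0.06). Among 17 genes for chaperones and proteases of mitochondria 8 fell and 4 rose, beside 31.1% lower and 28.7% higher over all genes tested. Their median was -0.11 (0.07 by library totals). Clpp, the peptidase of the ClpXP protease (-0.83), Grpel1, a partner of mitochondrial Hsp70 (-0.68), and the protease gene Lonp1 (-0.60) fell. Oma1, the inner membrane protease that cuts OPA1 and DELE1 under stress, rose, with 6.82, 6.64 and 6.27 FPKM against 3.05, 2.86 and 3.50 (0.87 ± 0.12).

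All 43 genes for cytosolic ribosomal proteins fell, with a median of -0.82. Rplp1, of the ribosomal stalk, had 2145, 2119 and 2008 FPKM with shNdufa5_1, against 4758, 4974 and 4712 with shControl (-1.20 ± 0.03, adjusted p = 2.65e-13). Rpl19 (-1.23) and Rpl10 (-1.12) fell likewise, and Rpl4 fell least (-0.17). Under quantile normalization the median was -0.23, with 27 lower and 1 higher. Processed pseudogenes share fragments with these genes, so single values are uncertain.

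Chaperones of the ER formed a further group that fell. When unfolded proteins build up, the sensors ATF6, IRE1 and PERK of the ER switch on chaperones and degradation factors, many of them through the ER stress element, CCAAT and CCACG 9 bases apart. Of 20 genes tested, 16 fell and 2 rose, with a median of -0.50 (-0.30 under quantile normalization, -0.32 by library totals). The promoters of 4 members that carry the element and fell are shown because the group moved together. RefSeq (GRCm38.p6) gave the 250 bases before the annotated start of each, and capitals mark matches to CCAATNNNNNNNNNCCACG on either strand, with no other searched motif overlapping them.
Hspa5, chr2:34771840-34772089, plus strand: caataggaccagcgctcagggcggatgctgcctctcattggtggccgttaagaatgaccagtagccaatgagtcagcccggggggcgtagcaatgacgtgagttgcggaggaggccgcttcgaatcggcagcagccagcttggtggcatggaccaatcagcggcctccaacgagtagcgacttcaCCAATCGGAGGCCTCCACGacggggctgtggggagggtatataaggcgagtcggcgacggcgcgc
Hsp90b1, chr10:86705445-86705694, minus strand: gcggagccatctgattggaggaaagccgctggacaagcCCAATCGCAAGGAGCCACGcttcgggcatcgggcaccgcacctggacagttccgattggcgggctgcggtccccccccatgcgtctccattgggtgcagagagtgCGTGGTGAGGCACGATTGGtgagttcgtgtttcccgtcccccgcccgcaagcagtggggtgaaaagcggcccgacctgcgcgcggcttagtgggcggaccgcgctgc
Calr, chr8:84846932-84847181, minus strand: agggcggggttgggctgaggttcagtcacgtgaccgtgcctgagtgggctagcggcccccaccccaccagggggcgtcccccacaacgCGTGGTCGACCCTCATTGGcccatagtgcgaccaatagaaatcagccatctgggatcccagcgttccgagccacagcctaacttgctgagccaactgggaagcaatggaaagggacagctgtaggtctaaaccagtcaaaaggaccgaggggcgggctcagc
Creld2, chr15:88819396-88819645, plus strand: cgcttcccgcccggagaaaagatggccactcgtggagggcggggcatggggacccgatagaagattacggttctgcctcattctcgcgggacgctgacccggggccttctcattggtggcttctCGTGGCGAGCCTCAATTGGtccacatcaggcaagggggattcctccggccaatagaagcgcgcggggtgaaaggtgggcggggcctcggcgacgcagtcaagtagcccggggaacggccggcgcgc
The element was found in 8 of the 17 ER genes with a RefSeq promoter (47.1%), in 12 of 8124 tested genes with one (0.148%) and in 37 of all 32851 promoters (0.113%). A match describes these letters and is no measure of binding.

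Hspa5, the gene of the main ER chaperone BiP, had 316, 320.0 and 328 FPKM with shNdufa5_1, against 753, 726 and 739.8 with shControl (-1.20 ± 0.02, adjusted p = 9.78e-15). Calr, for the lectin chaperone calreticulin, had 154, 149 and 164 FPKM, against 354, 367 and 345 (-1.19 ± 0.04). Creld2, a resident protein of the ER, had 40.1, 39.5 and 41.3 FPKM, against 75.7, 77.3 and 76.4 (-0.91 ± 0.07). Hsp90b1, for the chaperone GRP94, shared the element and differed less, by -0.27, so members with the element did not fall by like amounts.

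The steepest falls of the group were in Sdf2l1 and Manf. Sdf2l1, an ER protein that works with BiP, had 14.2, 14.6 and 17.0 FPKM, against 63.4, 57.0 and 53.9 (-1.86 ± 0.09). Manf, a secreted cofactor of BiP, had 40.6, 37.4 and 40.3 FPKM, against 125, 127 and 124 (-1.65 ± 0.04). Xbp1, the transcription factor gene whose RNA IRE1 splices, fell by 1.02. Atf6 (0.25) and the disulfide isomerase gene Pdia3 (0.13) rose.

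Genes of the integrated stress response, the ATF4 program that PERK and other kinases start, did not move as a block. Of 32 tested, 13 fell and 12 rose. Gdf15, a secreted stress hormone, had 7.45, 7.55 and 8.49 FPKM with shNdufa5_1, against 24.4, 25.0 and 27.0 with shControl (-1.58 ± 0.13, adjusted p = 4.35e-08). Ddit3, for the transcription factor CHOP, had 80.1, 74.3 and 77.0 FPKM, against 170.4, 183 and 184 (-1.20 ± 0.05). Trib3, a CHOP target, fell by 0.83 and Atf4 itself by 0.30. Against these stood Slc7a11, the cystine transporter gene, with 9.47, 10.4 and 10.3 FPKM, against 4.75, 4.74 and 3.94 (1.01 ± 0.07).

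The cytosolic heat shock list also split, with 8 of 18 lower and 6 higher. Hspb1, a small heat shock protein, had 12.0, 9.76 and 15.4 FPKM with shNdufa5_1, against 37.4, 35.4 and 43.1 with shControl (-1.58 ± 0.19, adjusted p = 2.34e-06). Cryab, for alpha B-crystallin, had 40.0, 37.0 and 39.0 FPKM, against 76.2, 78.3 and 70.3 (-0.94 ± 0.06). Dnajb1, the Hsp40 partner of Hsp70, fell by 0.79. These 3 fell along with Hspa1b, while Hsp90aa1 (0.37), Hspa4 (0.44) and Hspa4l (0.69) rose. None of the 13 genes with a RefSeq promoter held the heat shock motif GAANNTTCNNGAA in the 250 bases, which 0.480% of tested genes did, and that says only that these letters are not in this window.

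Most interferon effector genes were lower with shNdufa5_1 in SCM. Interferons bind receptors whose signal leads to the interferon-stimulated response element, from which antiviral effectors are switched on. IRF7 in turn drives interferon genes. The core of that element, GAAANNGAAA on either strand, was found in 6 of the 18 effector genes with a RefSeq promoter (33.3%), in 233 of 8124 tested genes (2.87%) and in 978 of all 32851 promoters (2.98%). The 250 bases before the start of 3 effectors that carry it and fell are shown (RefSeq, GRCm38.p6), with matches in capitals, some of which overlap one another.
Isg15, chr4:156200819-156201068, minus strand: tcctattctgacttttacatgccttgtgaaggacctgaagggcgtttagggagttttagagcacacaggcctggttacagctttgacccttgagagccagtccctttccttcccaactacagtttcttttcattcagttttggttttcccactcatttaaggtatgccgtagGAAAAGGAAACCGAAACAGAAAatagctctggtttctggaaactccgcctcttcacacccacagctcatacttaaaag
Bst2, chr8:71537473-71537722, minus strand: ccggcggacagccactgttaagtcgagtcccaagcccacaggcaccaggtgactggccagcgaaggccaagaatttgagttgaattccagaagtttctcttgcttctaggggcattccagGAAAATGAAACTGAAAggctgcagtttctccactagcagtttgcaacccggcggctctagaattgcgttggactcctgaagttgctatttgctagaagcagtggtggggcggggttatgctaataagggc
Ifit1, chr19:34640639-34640888, plus strand: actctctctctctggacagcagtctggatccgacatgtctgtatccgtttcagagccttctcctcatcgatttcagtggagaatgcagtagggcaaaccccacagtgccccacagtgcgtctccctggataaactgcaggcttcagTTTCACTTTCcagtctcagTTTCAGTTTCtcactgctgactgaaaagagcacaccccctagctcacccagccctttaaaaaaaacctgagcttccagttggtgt
Isg15, a ubiquitin-like protein, had 5.85, 3.61 and 6.57 FPKM with shNdufa5_1, against 15.5, 20.0 and 13.7 with shControl (-1.47 ± 0.25, adjusted p = 9.85e-05). Bst2, the gene of tetherin, which holds budding virus at the cell surface, had 56.4, 68.4 and 54.9 FPKM, against 133, 122 and 117 (-1.04 ± 0.06). Ifit1, which binds viral RNA, had 1.11, 0.920 and 0.792 FPKM, against 1.32, 1.93 and 1.72 (-0.45 ± 0.10). The groups did not overlap in any of the 3, though Ifit1 was near the filter and differed least.

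Of 21 effectors tested 17 fell and 1, Ifit2 (0.39), rose, with a median of -0.47. Another 16 listed effectors were under the filter, among them Mx1, Oas2 and Rsad2. Ifi27 had 29.5, 27.6 and 27.5 FPKM with shNdufa5_1, against 90.3, 90.6 and 88.7 with shControl (-1.64 ± 0.06), and Ifitm3, which keeps virus from fusing with endosomes, had 301, 309 and 287 FPKM, against 654, 636 and 615 (-1.08 ± 0.06). Ifi27 stood at 31.4% of the control mean and Ifitm3 at 47.1%.

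The regulators upstream moved less uniformly, with 10 of 22 lower and 4 higher. Irf7 had 1.70, 1.32 and 1.33 FPKM with shNdufa5_1, against 7.29, 8.20 and 8.89 with shControl (-1.90 ± 0.10, adjusted p = 2.13e-10). Ddx58, the gene of the RNA sensor RIG-I, had 2.17, 1.84 and 2.07 FPKM, against 6.12, 6.41 and 5.22 (-1.19 ± 0.10). Irf9 (-0.62) fell. Jak2 (0.58), Tmem173, the gene of the DNA sensor adaptor STING (0.49), Tbk1 (0.38) and Jak1 (0.33) rose.

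Class I antigen presentation, which shows peptides of the cell to T cells, was lower as well. Of 16 genes tested, Calr again among them, 13 fell and 1, the peptide trimming gene Erap1 (0.38), rose, with a median of -0.55 (-0.29 with the GC and length trend removed). B2m, the light chain of class I molecules, had 255, 250.2 and 267 FPKM with shNdufa5_1, against 505, 498 and 494 with shControl (-0.95 ± 0.05, adjusted p = 2.15e-10). Tap1, a subunit of the peptide transporter, had 4.99, 4.45 and 4.31 FPKM, against 10.8, 11.5 and 11.5 (-1.14 ± 0.07). Psmb8, of the immunoproteasome, fell by 0.74.

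Markers of immune cells, checked beside these genes, were mostly absent. Of 12 immune and macrophage markers only Cd68 and Cd14 passed the filter, and their calls were opposite (Cd68 -1.50, Cd14 0.63). The summed level of all 12 was 11.6 to 12.2 FPKM with shNdufa5_1 and 12.0 to 14.5 with shControl. Ptprc, Itgam, Adgre1, Tyrobp, Cd3e and Ms4a1 were listed at 0 in all 6 libraries.

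The inflammatory secretome, the cytokines, proteases and NF-kB regulators typical of senescent cells, split almost evenly. Of 35 genes tested 16 rose and 15 fell. Among the falls, Cxcl10, a chemokine that interferon induces, had 1.39, 1.19 and 1.71 FPKM with shNdufa5_1, against 5.91, 4.20 and 7.19 with shControl (-1.46 ± 0.19). Nfkbia, the NF-kB inhibitor gene that NF-kB itself switches on, had 33.9, 37.2 and 33.9 FPKM, against 89.9, 90.8 and 94.6 (-1.37 ± 0.05, adjusted p = 5.6e-12). Nfkb2 (-0.91), Relb (-0.90), Nfkbie (-0.87), the complement gene C3 (-0.99) and the macrophage growth factor gene Csf1 (-0.89) fell beside Ccl5 and Lcn2.

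Rises of the same list were led by Plau and Il33. Lif, a cytokine that signals through gp130, had 22.6, 21.9 and 23.6 FPKM with shNdufa5_1, against 12.3, 12.0 and 12.8 with shControl (0.83 ± 0.11). Il6ra, the interleukin-6 receptor (0.94), the epithelial cytokine gene Tslp (0.81), the monocyte chemokine genes Ccl7 (0.68) and Ccl2 (0.49) rose. Il6, Il1a, Il1b, Tnf and 11 more listed genes were under the filter.

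Early response transcription factors moved in both directions. Of 26 immediate early genes, which growth factors switch on within minutes, 9 fell and 8 rose. These shares are near the 31.1% lower and 28.7% higher over all genes tested. Egr1 had 44.5, 45.2 and 43.0 FPKM with shNdufa5_1, against 19.9, 21.7 and 20.6 with shControl (1.06 ± 0.04, adjusted p = 5.33e-12), and Egr3 had 3.56, 3.64 and 3.42 FPKM, against 0.912, 0.888 and 0.936 (1.25 ± 0.09). Maff, a small Maf protein, had 28.7, 32.4 and 29.5 FPKM, against 67.5, 71.7 and 70.1 (-1.18 ± 0.05), and of the AP-1 genes Fosl2 (-0.97), Fosl1 (-0.89), Jund (-0.51) and Jun (-0.47) fell while Fosb (0.38) and Junb (0.34) rose. Myc, at 70.8, 69.7 and 64.1 FPKM against 71.3, 74.7 and 73.9, did not pass (-0.10, adjusted p = 0.0962).

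Output genes of the MAPK pathway, with feedback inhibitors and EGF family ligands, rose in 11 of 21 cases and fell in 7. Areg, for the EGF receptor ligand amphiregulin, had 42.2, 42.4 and 38.8 FPKM with shNdufa5_1, against 15.7, 16.3 and 17.8 with shControl (1.26 ± 0.06). Errfi1, an inhibitor of EGF receptor, had 136, 132 and 139.7 FPKM, against 71.0, 70.0 and 66.8 (0.96 ± 0.03, adjusted p = 2.71e-12). Spry2 (0.75) and Dusp2 (0.75) rose and the phosphatase gene Dusp4 fell (-0.80), so feedback genes differed in sign.

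Arrest genes linked to p53 fell in 11 of 24 cases and rose in 5. Beside Gadd45b, Plk2 had 43.0, 38.4 and 42.6 FPKM with shNdufa5_1, against 76.9, 75.7 and 72.8 with shControl (-0.85 ± 0.04). The antiproliferative Btg1 (-0.65) fell. The death receptor gene Fas was also called lower (-0.87) but was near the filter, at 0.295, 0.293 and 0.227 FPKM against 0.619, 1.33 and 2.29. It rested on as few as 8 fragments in a library. Mdm2, the ubiquitin ligase gene that p53 induces, rose (0.56). Cdkn1a, the p21 gene, had 39.9, 38.9 and 39.9 FPKM against 41.7, 43.5 and 41.4 and did not pass (-0.09, adjusted p = 0.0655).

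Most genes of G2 and mitosis were modestly higher. Of 35 genes of G2 and mitosis 22 rose and 3 fell, with a median of 0.24 (0.42 by library totals), and 8 fell with the GC and length trend removed. Top2a, the topoisomerase of chromosome separation, had 54.2, 51.8 and 56.9 FPKM with shNdufa5_1, against 33.8, 33.4 and 35.1 with shControl (0.65 ± 0.04, adjusted p = 7.42e-10). Kif23, a motor of cytokinesis, had 14.3, 13.7 and 15.3 FPKM, against 9.18, 8.13 and 8.12 (0.70 ± 0.07), and Bub1 (0.63) and the cyclin A2 gene Ccna2 (0.55) rose. Mki67 had 17.4, 16.5 and 18.1 FPKM against 17.4, 15.8 and 17.6 and did not pass (adjusted p = 0.608). In S phase and origin licensing 14 of 31 rose and 5 fell, with a median of 0.13 (0.22 under quantile normalization, 0.32 by library totals). Rrm2, a subunit of ribonucleotide reductase, rose by 0.72, and Slbp (0.58), Orc2 (0.55) and Pola1 (0.53) rose.

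Sterol synthesis was the pathway with the highest median. Of 26 genes for the synthesis and uptake of cholesterol 18 rose and 3 fell, with a median of 0.38. Idi1, the isopentenyl diphosphate isomerase, had 9.96, 11.6 and 11.9 FPKM with shNdufa5_1, against 3.65, 3.88 and 4.45 with shControl (1.28 ± 0.09, adjusted p = 4.08e-09). Acat2 (0.82), Cyp51 (0.72) and Hmgcs1 (0.67) rose and the regulator gene Srebf2 fell slightly (-0.15).

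Central carbon metabolism was mixed. Glycolysis gave 10 rises and 10 falls among 23 identifiers, Aldoa having 2. Pdk1, a kinase that shuts off pyruvate dehydrogenase, had 9.79, 9.94 and 11.0 FPKM with shNdufa5_1, against 3.99, 5.32 and 4.45 with shControl (1.01 ± 0.07), and the phosphofructokinase gene Pfkl rose by 0.91. Eno2 fell (-0.83), as did both Aldoa identifiers (-1.06 and -0.31). Of 31 genes of the TCA cycle and NADH shuttles 13 fell and 10 rose. Mitochondrial malate dehydrogenase Mdh2 had 241, 235 and 234 FPKM, against 415, 423 and 401 (-0.80 ± 0.03), and its partner in the malate-aspartate shuttle Got2 fell by 0.69. The isocitrate dehydrogenase gene Idh1 (0.68) and the malic enzyme gene Me2 (0.61) rose.

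Hypoxia-linked genes rose in 6 of 14 cases and fell in 2, with Egln3, an oxygen sensor (0.58), and Plod2 (0.36) higher and Higd1a (-0.56) and Ndrg1 (-0.45) lower. The call of Plod2 ended with the GC and length trend removed (0.17, adjusted p = 0.13). Ferritin and NRF2 antioxidant genes fell in 13 of 28 cases and rose in 12. Ftl1, the ferritin light chain, had 829.5, 859.9 and 782 FPKM with shNdufa5_1, against 1916, 1861 and 1952 with shControl (-1.21 ± 0.03, adjusted p = 8.28e-13). The heavy chain gene Fth1 (-0.77) and Sod1 (-0.85) fell too, while glutathione reductase Gsr (0.92), Gclm (0.65) and Nqo1 (0.48) rose.

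Lysosomal genes were lower. Of 28 tested 23 fell and 1 rose, with a median of -0.40 (-0.22 under quantile normalization, -0.21 by library totals). Sqstm1, the autophagy receptor p62, had 337, 316 and 321 FPKM with shNdufa5_1, against 913, 916 and 894 with shControl (-1.48 ± 0.03, adjusted p = 4.12e-15). Npc1, which exports cholesterol from lysosomes, had 14.2, 14.5 and 14.3 FPKM, against 32.3, 33.0 and 31.1 (-1.11 ± 0.04). Atp6v0d1, a subunit of the proton pump, fell by 1.09, Hexa by 0.99 and Tfeb, a regulator of lysosomal genes, by 0.58. Cd68, at 0.985, 2.10 and 2.05 FPKM against 5.92, 6.96 and 6.73, is at once a lysosomal gene and a macrophage marker.

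Matrix and adhesion genes moved in both directions. Of 27 matrix genes 11 fell and 9 rose. Thbs1, for thrombospondin-1, had 90.6, 90.6 and 92.6 FPKM with shNdufa5_1, against 42.6, 37.4 and 40.0 with shControl (1.17 ± 0.04, adjusted p = 2.3e-12). Col3a1 (0.65) rose and fibronectin Fn1 (-0.51) and perlecan Hspg2 (-0.57) fell. Among 19 integrin and adhesion genes 7 rose and 5 fell, with the laminin receptor chain Itga6 at 82.5, 87.3 and 86.6 FPKM against 43.6, 43.0 and 45.9 (0.94 ± 0.03). Jup rose (0.52) and Itga5 (-0.51) and Itga7 (-0.45) fell.

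TGF-beta and mesenchymal genes rose in 9 of 25 cases and fell in 3. Id2 (1.05) and the activin gene Inhba (0.88) rose, and Tgfb1 had 24.2, 23.9 and 22.9 FPKM with shNdufa5_1, against 46.3, 44.6 and 45.8 with shControl (-0.92 ± 0.05). Snai1 was called higher (0.66, adjusted p = 0.026) and lost the call without shControl replicate 3 (0.46, adjusted p = 0.129), without shNdufa5_1 replicate 2 (adjusted p = 0.0572) or without shNdufa5_1 replicate 3 (adjusted p = 0.0619), with no filter on low values (0.0738) and with a pseudocount of 0.1 (0.0534). Of 20 genes of YAP and TEAD 6 fell and 5 rose, shares near those of all genes tested. The well known targets of YAP differed in sign, with Ctgf at 0.82 and Cyr61 at -0.77. Amotl2 fell (-0.59), and Axl fell (-0.31) but was higher under quantile normalization (0.13).

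Splicing factors of the SR family fell in 7 of 14 cases and rose in 5, with Srsf4 (-0.83) and Srsf11 (-0.58) lower and Srsf5 (0.50) and Srsf3 (0.44) higher. Of 13 genes linked to cancer stem cells 6 rose and 2 fell, with Itga6, Bmi1 (0.58), Aldh1a3 (0.42) and Cd44 (0.41) higher and Aldh2 (-0.62) lower. Nanog, Pou5f1, Sox2 and 7 more were under the filter.

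Carcinoma markers were checked against the label of the line. Krt7, Krt8, Krt18, Krt19, Cldn3, Pax8, Msln, Wfdc2, Muc1 and Tjp1 passed the filter, while Epcam, Cdh1, Cldn4, Cldn7, Esrp1, Ovol1 and Folr1 were under it and Wt1 and Muc16 were listed at 0. The summed level of the 19 markers was 2381 to 2438 FPKM with shNdufa5_1 and 2032 to 2134 with shControl. Pax8, the transcription factor of Müllerian epithelium, had 8.02, 7.49 and 8.01 FPKM with shNdufa5_1, against 15.3, 12.9 and 13.4 with shControl (-0.75 ± 0.06). Cldn3 (-0.66) fell and Krt7 (0.63) and Tjp1 (0.51) rose, so the markers did not move as one.

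Fibroblast markers were sparse, with 5 of 12 tested, Thy1 listed at 0 and a summed level of 42.3 to 43.3 FPKM with shNdufa5_1 and 49.4 to 51.0 with shControl. Pdpn (-0.46), Pdgfra (-0.37) and Dcn (-0.36) fell and Col3a1 rose. The call of Dcn ended without shControl replicate 2 (adjusted p = 0.0825), shNdufa5_1 replicate 1 (0.0579) or shNdufa5_1 replicate 2 (0.0654), and by library totals (0.084). Endothelial markers summed to 4.92 to 6.36 FPKM with shNdufa5_1 and 6.01 to 8.80 with shControl. Plvap, the 1 of 10 tested, fell by 0.35, a call that ended without shControl replicate 3 (-0.22, adjusted p = 0.14) or shNdufa5_1 replicate 2 (-0.24, adjusted p = 0.13) and with the GC and length trend removed (-0.0041, adjusted p = 0.983). It also ended by library totals (adjusted p = 0.212), with no filter on low values (0.0646) and in a fit to the compared groups alone (0.074). Msln, the 1 of 8 mesothelial markers tested, did not pass (0.05, adjusted p = 0.355) but was higher and passed under quantile normalization (0.29), by library totals (0.24) and with the GC and length trend removed (0.25).

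The same hairpin contrast in PCM asked which of these differences depended on the senescent medium. In PCM 5839 genes (52.7%) passed, 2839 higher and 3000 lower, and 148 (1.34%) differed by at least 1 on the log2(FPKM + 1) scale. The 2 contrasts share no library. Of the genes called in SCM, 4158 were called the same way in PCM and 271 the opposite way, 62.7% and 4.09% of the SCM calls and 71.2% and 4.64% of the PCM calls. Across the 11084 genes the differences in the 2 media correlated at r = 0.65 (Pearson), a description across genes, which are not independent replicates. All 15 of the largest rises and 13 of the 15 largest falls were called the same way in PCM, where 25.6% of genes were called higher and 27.1% lower. The test between the media passed for 2 of the 15 rises and 10 of the 15 falls. Over all genes tested, 10.7% passed it as higher and 15.5% as lower. These genes were chosen for their difference in SCM, which is a term of that test, so the choice itself favours a pass.

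Whether the difference itself changed with the medium was tested as the contrast in SCM minus the contrast in PCM, and 2900 genes (26.2%) passed, 1186 higher (10.7%) and 1714 lower (15.5%). Under scaling by library totals these were 3317 and 770, and under quantile normalization 988 were lower. Hspa1b stood apart most, at 1.54, 1.74 and 1.11 FPKM for shNdufa5_1 and 21.3, 19.4 and 18.7 for shControl in SCM, and at 1.43, 2.38 and 1.26 for shNdufa5_1 and 1.59, 1.24 and 0.985 for shControl in PCM (-3.31 ± 0.23, SE, adjusted p = 1.14e-07). Only the control cells in SCM were high. Among the shNdufa5_1 and shControl groups, Irf7 was likewise high only in control cells in SCM. With shNdufa5_2, Irf7 had 5.25, 5.95 and 4.44 FPKM in SCM and 5.72, 5.44 and 6.03 FPKM in PCM, so higher levels were not limited to control cells or to SCM. In PCM it had 1.14, 1.21 and 1.19 FPKM for shNdufa5_1 and 1.35, 1.44 and 1.75 for shControl, groups that did not overlap, although the difference did not pass the test there (-0.20, adjusted p = 0.0956). The media differed (-1.70 ± 0.14, adjusted p = 4.64e-07).

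**Figure D3:**
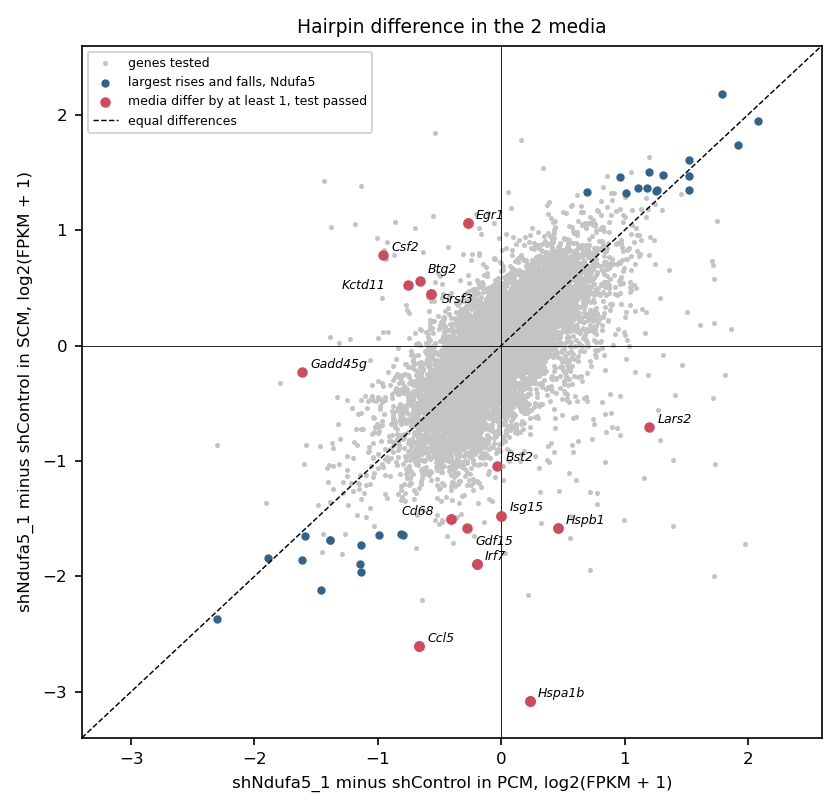
Hairpin difference of each of 11084 genes in SCM (vertical axis) against that in PCM (horizontal axis), both on the log2(FPKM + 1) scale, with the line of equal differences dashed. Blue points are Ndufa5 and the genes with the largest rises and falls in SCM, and red points are named genes whose 2 differences were at least 1 apart and passed the test, from Hspa1b (-3.31) to Csf2 (1.74).

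A lower difference in SCM than in PCM was also found for Hspb1 (-2.04 ± 0.26), Ccl5 (-1.94 ± 0.24), Isg15 (-1.47 ± 0.35), Gdf15 (-1.31 ± 0.18) and Bst2 (-1.01 ± 0.09). Hspb1 had the opposite sign in PCM, close to the threshold of the test, at 7.50, 9.96 and 8.10 FPKM for shNdufa5_1 and 5.90, 6.04 and 5.72 for shControl in PCM (0.46, adjusted p = 0.0488), where every library with shNdufa5_1 was above the control libraries. Isg15 had 3.28, 8.39 and 3.87 FPKM for shNdufa5_1 and 4.40, 5.004 and 5.01 for shControl in PCM, groups that overlapped. Among the 21 interferon effectors 13 had a lower difference in SCM and none a higher one, and their median was -0.47 in SCM and -0.10 in PCM. In cytosolic ribosomal proteins 41 of 43 differed in the same sense (medians -0.82 in SCM and -0.29 in PCM), and among the 34 complex I subunits 23 did (-0.63 and -0.26). These list counts are on the deposited scale. They were not recomputed by library totals, where this test gave 770 lower calls over all genes in place of 1714. Lars2 also differed (-1.91), at 97.6, 84.1 and 52.4 FPKM for shNdufa5_1 and 111, 163 and 106 for shControl in SCM, and 67.2, 125 and 51.9 for shNdufa5_1 and 33.1, 41.8 and 24.6 for shControl in PCM. Gm23935 had means of 48214 FPKM for shNdufa5_1 and 82769.8 for shControl in SCM, and 57863 for shNdufa5_1 and 21478 for shControl in PCM. Its part in the Lars2 values was not tested.

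Egr1, Csf2 and Btg2 went the other way. Egr1 had 35.5, 34.8 and 35.4 FPKM for shNdufa5_1 and 43.9, 41.8 and 42.7 for shControl in PCM, so that it was lower there (-0.27) and higher in SCM (1.06), a change of 1.33 ± 0.05 (adjusted p = 1.5e-09). Csf2, the gene of the growth factor GM-CSF, had 20.8, 17.7 and 19.9 FPKM for shNdufa5_1 and 10.5, 11.4 and 10.8 for shControl in SCM, and 14.2, 9.67 and 16.9 for shNdufa5_1 and 27.7, 26.8 and 25.6 for shControl in PCM (1.74 ± 0.19). Btg2 (1.22), Kctd11 (1.27), Gadd45g (1.38) and Srsf3 (1.01) also had a higher difference in SCM than in PCM.

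Other large differences did not pass the test between the media. Hspa5 fell by 1.20 in SCM and by 1.15 in PCM (-0.05 ± 0.03, adjusted p = 0.316), Gadd45b by 2.37 and 2.30 (-0.07 ± 0.08, adjusted p = 0.6), and Plau rose by 1.74 and 1.92 (-0.19 ± 0.14, adjusted p = 0.342). Ndufa5 itself differed by -1.39 in PCM, and the media did not differ beyond the spread (-0.30 ± 0.17, adjusted p = 0.22). Genes of G2 and mitosis were higher in PCM in 32 of 35 cases, with a median of 0.49 against 0.24 in SCM, and the difference was smaller in SCM for 18 of them. These values are on the deposited scale. By library totals the SCM median was 0.42, and the count of 18 was not recomputed under that scaling.

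**Figure D4:**
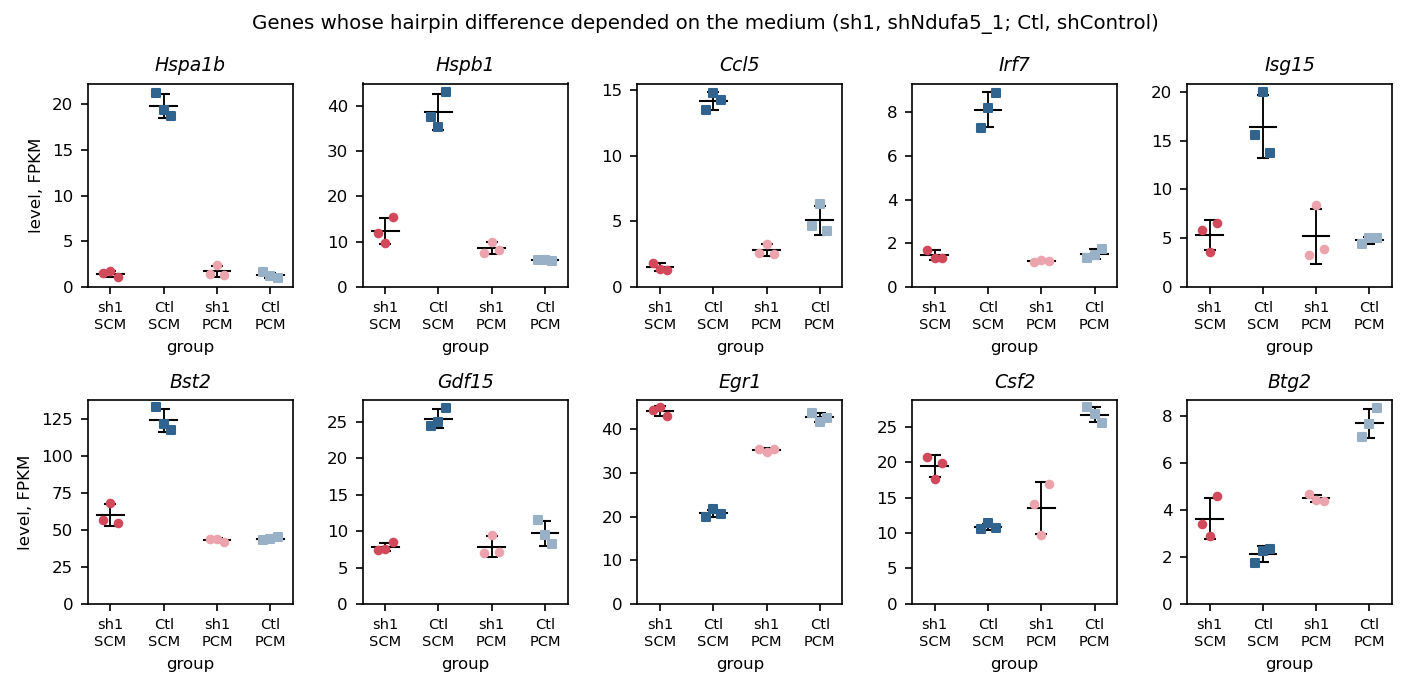
Level in FPKM (vertical axes from 0) of 10 genes in 4 groups of 3 libraries, with points for libraries, bars for means and whiskers of 1 SD. In the first 7 panels the shControl libraries in SCM stand above the other 3 groups, as in Hspa1b at 18.7 to 21.3 FPKM, and in Egr1 and Btg2 they stand below, while in Csf2 they overlap 1 library of shNdufa5_1 in PCM.

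The other Ndufa5 hairpin gave a smaller fall of the target and fewer differences from shControl. In the libraries labelled shNdufa5_2_SCM, Ndufa5 had 14.6, 16.1 and 20.2 FPKM, above all libraries with shNdufa5_1 (shNdufa5_1 minus shNdufa5_2 -1.25, adjusted p = 3.78e-07) and below shControl (shNdufa5_2 minus shControl -0.43, adjusted p = 0.0125). Against shControl, 3758 genes (33.9%) passed with shNdufa5_2, 13.9% higher and 20.0% lower, and shNdufa5_1 differed from shNdufa5_2 in 5971 (53.9%). The contrasts share control or knockdown libraries, so each gene's values are given side by side and no overlap is drawn.

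ER chaperone genes differed between the hairpins. Hspa5 had 316, 320.0 and 328 FPKM with shNdufa5_1 and 748, 749.8 and 759 with shNdufa5_2 (-1.22, adjusted p = 7.22e-15), against 753, 726 and 739.8 with shControl. Sdf2l1 had 60.1, 72.4 and 54.3 FPKM and Manf 109, 107 and 110.0 FPKM with shNdufa5_2, where Sdf2l1 did not pass against shControl (0.09, adjusted p = 0.479) and Manf fell by 0.20. Across the 20 ER genes the median difference from shControl was -0.50 with shNdufa5_1 and 0.09 with shNdufa5_2, which had 9 rises and 1 fall. Sqstm1 (-1.37), Gadd45b (-1.68) and Irf7 (-1.34) were also lower with shNdufa5_1 than with shNdufa5_2. Unlike Hspa5 and Sdf2l1, Gadd45b (-0.69, limma adjusted p = 8.79e-07) and Irf7 (-0.56, adjusted p = 0.00046) fell with shNdufa5_2 against shControl too, by less than with shNdufa5_1.

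Small heat shock genes were low with either hairpin. Hspb1 had 7.21, 12.6 and 14.0 FPKM with shNdufa5_2, a difference from shControl of -1.73, and Cryab had 37.2, 35.4 and 34.6 FPKM (-1.05). The hairpins did not differ beyond their spread in Hspb1 (0.15, adjusted p = 0.515) or Cryab (0.11, adjusted p = 0.148). Hspa1b had 4.25, 3.87 and 4.96 FPKM with shNdufa5_2, between both other groups. Complex I modules had medians of -0.22 (N), -0.33 (Q) and -0.28 (membrane arm) with shNdufa5_2, and cytosolic ribosomal proteins -0.24, with 39 of 43 lower. Complexes II to V (-0.25) and mitochondrial ribosomal proteins (-0.21) also had medians below that of shControl. With shNdufa5_2 the medians were -0.01 for class I antigen presentation, -0.08 for interferon effectors and 0.02 for lysosome. The lists highest with shNdufa5_1 were lower with shNdufa5_2. G2 and mitosis had a median of -0.21 (20 lower, 2 higher) and cholesterol synthesis -0.12 (9 lower, 1 higher).

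Rises seen with shNdufa5_1 were not all called with shNdufa5_2. Plau had 6.50, 6.45 and 4.996 FPKM (difference from shControl 0.72, adjusted p = 4.71e-05) and Il33 15.7, 17.6 and 18.2 FPKM (0.52, adjusted p = 0.0011) with shNdufa5_2. Thbs1, which is not among the 15 largest rises, was at 36.5, 36.0 and 36.3 FPKM, below shControl (-0.14, adjusted p = 0.0149) and below shNdufa5_1 (shNdufa5_1 minus shNdufa5_2 1.31, adjusted p = 1.27e-12). Ly6g, at 0.692, 0.819 and 0.985 FPKM, did not pass against shControl (-0.11, adjusted p = 0.584).

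**Figure D5:**
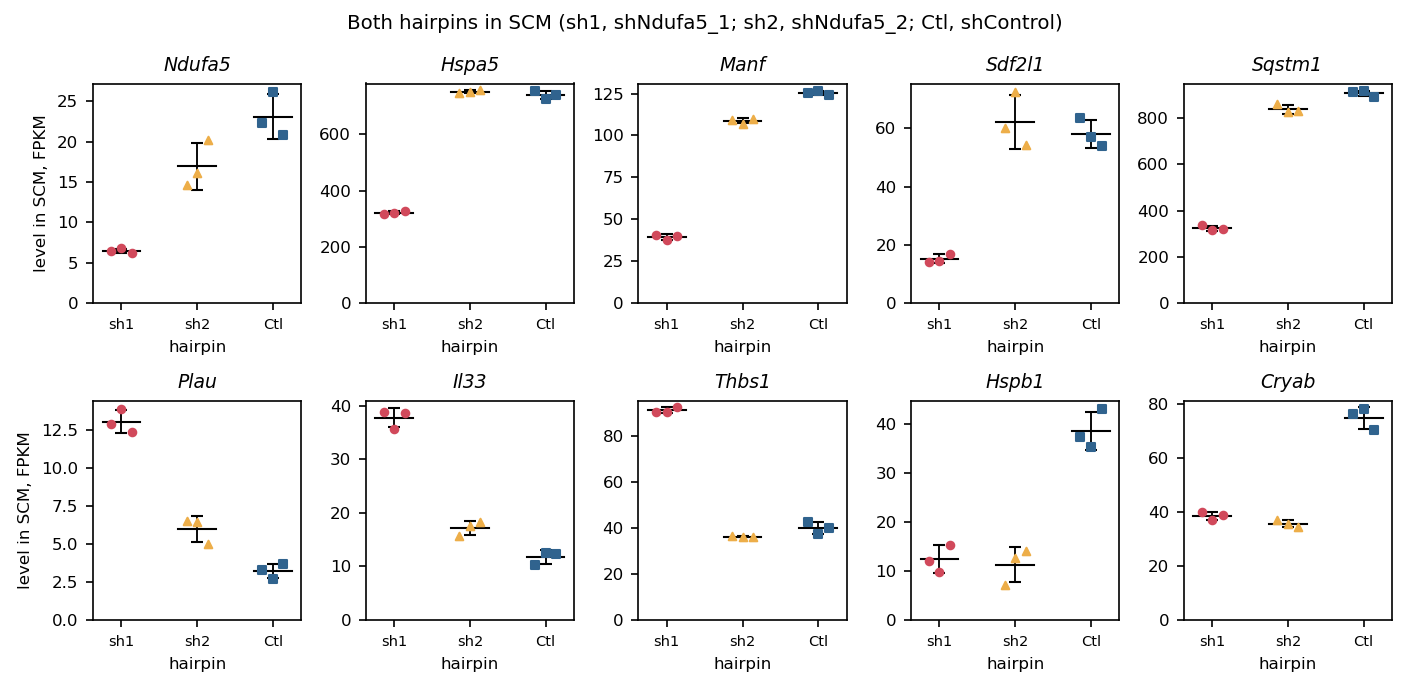
Level in SCM in FPKM (vertical axes from 0) of 10 genes with shNdufa5_1, shNdufa5_2 and shControl, 3 libraries each, with bars for means and whiskers of 1 SD. Hspa5, Manf, Sdf2l1 and Sqstm1 are lowest with shNdufa5_1, as with Hspa5 at 316 to 328 FPKM, while Hspb1 and Cryab are low with both hairpins.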

How the data were processed

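RNA of KPCA.B cells was sequenced after selection of polyadenylated RNA, 18 libraries in 6 groups of 3. The authors deposited FPKM values in a single table with a column for each library. STAR 2.6.1, DESeq2 and the builds GRCm38 and mm10 are named, with no order, in the submitters' processing notes; the counting tool, its use of strand and the gene lengths are not stated there, so overlapping genes and near-identical copies are uncertain.

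From these values limma 3.58.1 (R 4.3.3, package data.table, version 1.17.8) was fitted to log2(FPKM + 1) for 11084 genes with a mean of at least 1 FPKM, with 6 group coefficients over all 18 libraries, a variance trend on the mean and a two-sided Benjamini-Hochberg adjustment over all genes. Genes were called at an adjusted p under 0.05. Simulated data held 200 changed genes of 11084 for the comparison of shNdufa5_1 with shControl in SCM. At a log2 change of 0.5, 76.5% were recovered with 4 false calls, and at 1, 96% with 10. Far fewer genes changed there than were called in the real data, and noise was drawn independently for each gene. These rates therefore need not hold for the real data. Of the low values (up to 15 fragments), 99.6 to 99.8% in genes with a single transcript and 96.8 to 97.9% in other genes were whole steps of 1 fragment, to within 0.1 of a fragment, which gave the depths.

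The members and the 38 gene lists were chosen with earlier results of these data known. Named genes were Ndufa5, the 15 largest rises and falls without overlap and with a higher mean of at least 5 FPKM, up to 4 called members of each list and the 6 largest changes with the medium in each direction; further list members were named after their values were seen. Alternatives were quantile normalization, scaling by library totals, a pseudocount of 0.1, no filter, a filter of 5 FPKM, fits to the compared groups alone, a replicate block, removal of GC and length trends and leaving out each library. shNdufa5_2 libraries in PCM entered the fit and were otherwise used here only for the values of Irf7. Results for a few genes are not reported here.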

Additional observations from a re-analysis of the deposited data

Results flagged for a closer look

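The hairpin difference itself changed with the medium for 1186 genes in the higher and 1714 in the lower direction (limma, adjusted p under 0.05, SCM minus PCM), which put both counts here. Over all 11084 genes tested, 26.2% passed in either direction. The 164 named genes were chosen in part for large differences in SCM or between the media, which favours a pass. Of them 99 passed this test, 15 with a change of at least 1 on the log2 scale.

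Among these, the difference was lower in SCM for Hspa1b (-3.31), Hspb1 (-2.04), Ccl5 (-1.94), Lars2 (-1.91), Irf7 (-1.70), Isg15 (-1.47), Gdf15 (-1.31), Cd68 (-1.10) and Bst2 (-1.01). Cd68 had 0.985, 2.10 and 2.05 FPKM with shNdufa5_1 and 5.92, 6.96 and 6.73 with shControl in SCM, and 0.751, 2.17 and 1.31 with shNdufa5_1 and 2.10, 2.01 and 2.20 with shControl in PCM. The difference was higher in SCM for Srsf3 (1.01), Btg2 (1.22), Kctd11 (1.27), Egr1 (1.33), Gadd45g (1.38) and Csf2 (1.74). Gadd45g, a stress-induced gene of the Gadd45 family, had 57.2, 55.5 and 56.9 FPKM with shNdufa5_1 and 68.4, 71.6 and 60.1 with shControl in SCM, and 54.9, 58.5 and 55.6 with shNdufa5_1 and 169, 175 and 178 with shControl in PCM. The other 84 genes changed by less than 1, 19 of them above and 65 below 0.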

How the results depend on the processing

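Scaling by library totals gave 4841 higher and 2219 lower calls for shNdufa5_1 against shControl in SCM and 3317 higher and 770 lower for the difference between the media, where quantile normalization gave 988 lower. Leaving out each library gave 2845 to 3012 higher and 3184 to 3277 lower calls in SCM, 2542 to 2656 and 2673 to 2804 in PCM, 937 to 1148 and 1493 to 1627 for the difference between the media, 2612 to 2711 and 2739 to 2838 for shNdufa5_1 against shNdufa5_2, and -1.75 to -1.59 for Ndufa5. Other settings put Ndufa5 between -1.81 and -1.41. Quantile normalization reversed mt-Co1 (0.16), mt-Nd2 (0.33) and Axl (0.13), and the cause was not tested. It changed the sign of 10 of 33 list medians, scaling by totals that of 13 and taking out GC and length trends that of 6. Of 158 gene results, taking out those trends left 155 with the same direction and side of the threshold, a pseudocount of 0.1 left 157 and no filter left 155. With a filter of 5 FPKM all 137 that could be fitted kept both.

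No pairing by replicate number was detected between shNdufa5_1 and shControl in SCM. Deviations of same-numbered libraries correlated at -0.071, 0.027 and 0.0028, and those of other pairs at -0.097 to 0.087. With 3 libraries a group, such values cannot show that the libraries were unpaired. A fit with the replicate number as a block gave 3168 higher and 3453 lower calls, and 2960 and 3140 with the GC and length trend also removed. The block alone ended the call of none of the 158 gene results, and with those trends removed it also ended that of Ndufaf6 (-0.28, adjusted p = 0.0573). Depth was 15.2 to 38.9 M fragments, and Ndufa5 rested on 110 to 913 fragments in a library.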
